A study of Homo sapiens with 12 samples.

Results

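Under vehicle, 39 genes were expressed in RL and close to silent in KARPAS-422 and Pfeiffer, 3 human lymphoma cell lines that were compared by RNA sequencing. They are the autosomal genes chosen by their values under DMSO, with at least 5 FPKM (fragment numbers scaled to each gene's length and each library's size) in both RL libraries and under 0.5 FPKM in all 5 DMSO libraries of the other lines. Genes with immunoglobulin symbols, which start with IGH, IGK or IGL, were left out, which removed 13 of the 52 genes that met both limits. The table holds 63129 genes, 18731 of them expressed enough to be tested, and 34331 autosomal genes met the lower limit in the 5 DMSO libraries. RL against the other lines is therefore a description of how the genes were chosen and carries no test.

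All 3 lines are established from diffuse large B cell lymphoma of the germinal centre type, and each carries an activating change in the SET domain of EZH2, so that no line with normal EZH2 was compared. RL cells received 0.1% DMSO (n = 2). KARPAS-422 cells received 1.5 µM CPI-169 (n = 3) or 0.1% DMSO (n = 3), and Pfeiffer cells received 1.5 µM GSK343 (n = 2) or 0.1% DMSO (n = 2). CPI-169 and GSK343 are inhibitors of EZH2, all cells were harvested after 4 days, and RL, which the labels call phenotypically unresponsive to such inhibitors, was sequenced only under DMSO. RL was also seeded at a lower density than the other lines, and each treated line had its own compound, so that line, density and compound cannot be told apart. Nothing in the labels says that the libraries of a group came from separate cultures, so each p-value takes its error from the scatter among libraries, part or all of which may be technical.

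EZH2 is the catalytic subunit of PRC2, a complex that methylates a lysine of histone H3, and genes covered by that mark are mostly silent. In germinal centre B cells EZH2 holds back genes of later B cell stages and of other lineages, and an inhibitor lets part of them be transcribed. A gene that is silent in a line can also be silent for other reasons, such as DNA methylation, loss of the locus or the lack of an activator. The question asked here was which of the genes that RL expressed came up in KARPAS-422 or Pfeiffer when EZH2 was inhibited.

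DNA before the start site was read from RefSeq (GRCh38.p14), which has a promoter under the symbol of 22 of the 39 genes. The 6 windows below are the 250 bases before the RefSeq start, 5′ to 3′, with CG dinucleotides in capitals. They show the 4 coding genes with the highest CPI-169 effect, S100A4 (chr1:153545807-153546056, minus strand), GNG7 (chr19:2702695-2702944, minus strand), FGR (chr1:27635186-27635435, minus strand) and TRIM9 (chr14:51095106-51095355, minus strand), beside 2 that neither compound raised, LSAMP (chr3:116445488-116445737, minus strand) and ARPP21 (chr3:35639275-35639524, plus strand). Which start site the cells used is not given by the table of FPKM values.
S100A4: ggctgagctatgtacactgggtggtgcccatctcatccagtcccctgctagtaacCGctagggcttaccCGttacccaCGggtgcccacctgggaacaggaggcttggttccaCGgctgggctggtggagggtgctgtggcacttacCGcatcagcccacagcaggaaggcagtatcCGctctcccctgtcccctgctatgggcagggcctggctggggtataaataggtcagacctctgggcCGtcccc
GNG7: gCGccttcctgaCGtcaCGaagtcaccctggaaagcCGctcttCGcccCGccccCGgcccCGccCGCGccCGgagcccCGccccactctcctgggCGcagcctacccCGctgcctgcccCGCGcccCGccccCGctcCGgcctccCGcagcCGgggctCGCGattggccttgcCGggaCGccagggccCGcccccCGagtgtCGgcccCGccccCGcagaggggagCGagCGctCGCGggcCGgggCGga
FGR: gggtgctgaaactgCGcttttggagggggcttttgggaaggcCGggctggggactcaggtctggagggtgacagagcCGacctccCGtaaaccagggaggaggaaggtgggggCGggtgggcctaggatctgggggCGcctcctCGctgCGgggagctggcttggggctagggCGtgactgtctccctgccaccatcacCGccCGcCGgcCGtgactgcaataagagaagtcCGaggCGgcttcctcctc
TRIM9: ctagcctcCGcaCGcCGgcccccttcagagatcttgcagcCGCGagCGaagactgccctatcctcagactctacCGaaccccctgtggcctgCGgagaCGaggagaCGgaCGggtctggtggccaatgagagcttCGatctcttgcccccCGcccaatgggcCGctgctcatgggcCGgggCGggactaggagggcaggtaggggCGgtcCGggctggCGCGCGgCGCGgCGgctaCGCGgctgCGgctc
LSAMP: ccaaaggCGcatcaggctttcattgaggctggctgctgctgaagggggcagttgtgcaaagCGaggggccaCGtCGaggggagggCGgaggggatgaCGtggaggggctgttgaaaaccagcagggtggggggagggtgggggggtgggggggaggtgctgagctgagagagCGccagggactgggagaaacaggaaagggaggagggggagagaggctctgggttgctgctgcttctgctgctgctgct
ARPP21: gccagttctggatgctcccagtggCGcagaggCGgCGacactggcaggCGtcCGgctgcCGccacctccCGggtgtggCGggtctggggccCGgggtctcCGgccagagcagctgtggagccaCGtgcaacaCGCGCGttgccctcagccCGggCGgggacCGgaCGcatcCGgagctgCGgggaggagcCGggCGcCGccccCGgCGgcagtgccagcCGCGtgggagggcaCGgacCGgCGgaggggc

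The motif CG reads the same on both strands. It occurs 7 times in the S100A4 window, 36 times in that of GNG7, 15 times in that of FGR and 27 times in that of TRIM9, against 7 times in LSAMP and 30 times in ARPP21. Of all 35116 RefSeq promoter windows of this length, 58.9% hold at least 7, 42.9% at least 15, 17.7% at least 27, 12.4% at least 30 and 4.85% at least 36. The genes that rose with CPI-169 thus span poor and rich windows, as do those that did not. The median was 7 in the 7 matched genes called higher with CPI-169, 8 in the 15 others and 11 in all windows.

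Of the 39 genes, 30 are protein-coding by GENCODE 29, 3 are lincRNAs, 3 processed transcripts, 1 a sense intronic transcript and 1 a unitary pseudogene, and 1 ID was not matched. They lie on 14 chromosomes, with 7 on chromosome 19, 6 each on chromosomes 1 and 11 and 5 on chromosome 3. Their mean FPKM in RL ran from 5.25 to 137 with a median of 8.39. In KARPAS-422 under DMSO the highest mean was 0.292 FPKM and in Pfeiffer under DMSO 0.452 FPKM, and 6 and 4 of the genes were listed at exactly 0 in every DMSO library of these lines. The 2 RL libraries agreed closely, with a median ratio of 1.06 between them and a largest ratio of 1.30, for the transcript RP11-23D24.2.

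The sum over the 39 genes was 741 and 756 FPKM in the RL libraries. It was 39.6, 31.6 and 39.9 FPKM with CPI-169, against 2.97, 3.50 and 3.32 FPKM with DMSO in KARPAS-422. It was 8.23 and 11.8 FPKM with GSK343, against 4.37 and 4.09 FPKM with DMSO in Pfeiffer. Both compounds thus gave higher sums than every DMSO library of their line, and all treated sums stayed far below those of RL. S100A4 alone made up 25.3, 17.8 and 25.2 FPKM of the CPI-169 sums, which therefore do not show a rise of the whole set. By the choice of genes, the DMSO sums were low and the RL sums high from the start. A bulk value cannot tell fewer expressing cells from less RNA per cell.

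**Figure D1:**
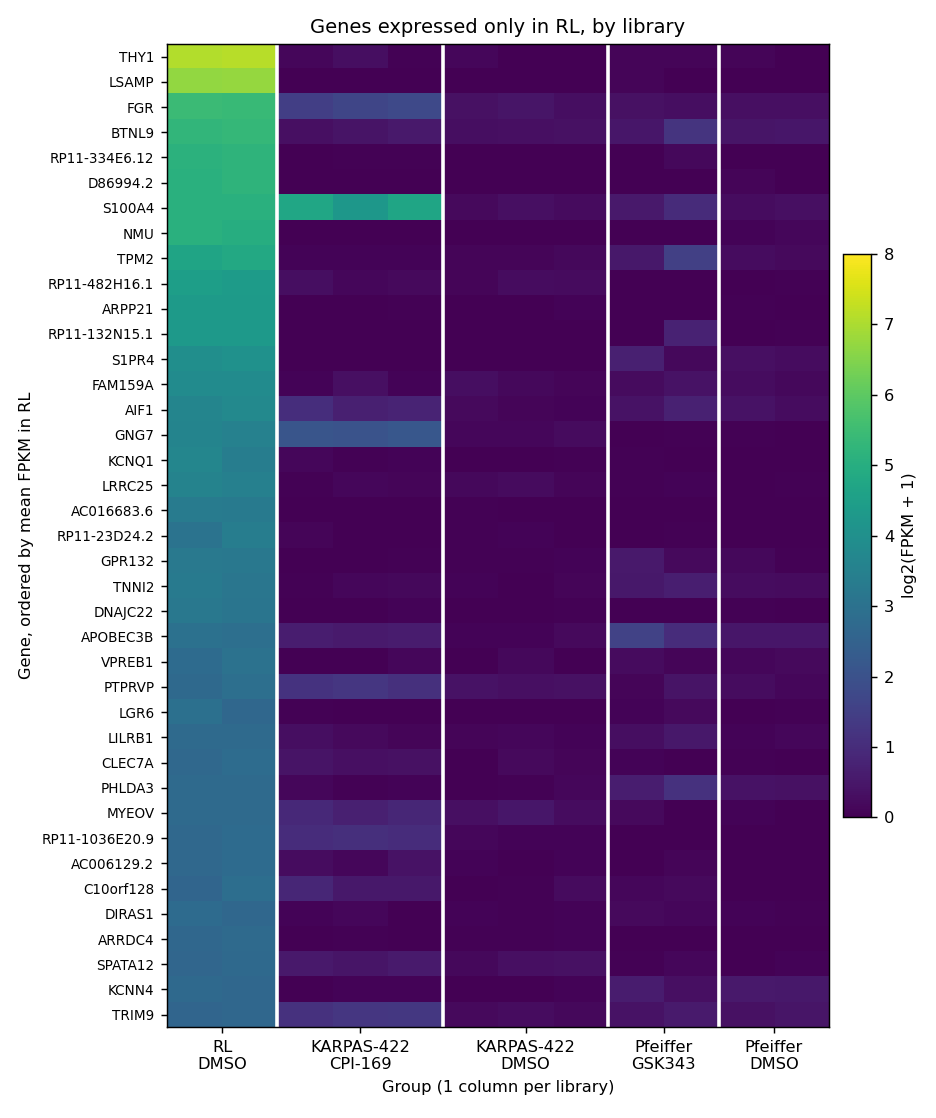
Heat map of the 39 genes, 1 row per gene ordered by mean FPKM in RL and 1 column per library, coloured by log2(FPKM + 1). The RL columns are filled throughout, S100A4 is the 1 gene that is bright in the CPI-169 columns, and most rows stay dark in KARPAS-422 and Pfeiffer.

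The libraries were those of B cells: the B cell markers MS4A1 (which encodes CD20), CD79A, CD79B and PAX5 were each at 1 FPKM or more in every library. Several of the 39 genes are best known from other cells, and markers of these were looked up. Myeloid markers summed to 22.1 and 23.7 FPKM in RL, almost all of it CD33 (21.6 FPKM on average), to 5.45 to 6.06 FPKM with CPI-169 against 2.27 to 2.84 FPKM with DMSO in KARPAS-422, and to 0.668 and 1.06 FPKM with GSK343 against 0.249 and 0.491 FPKM with DMSO in Pfeiffer. CD33 was the 1 of the 9 that reached 1 FPKM in every library of RL and of both KARPAS-422 groups, and S100A8 was listed at 0 in all groups. T and NK cell markers summed to 14.1 and 14.7 FPKM in RL, with CD3E and CD247 the 2 of 11 at 1 FPKM or more and CD7 listed at 0. They summed to 76.8 to 86.6 FPKM with CPI-169 against 73.7 to 83.1 FPKM with DMSO in KARPAS-422, and to 352 and 451 FPKM with GSK343 against 471 and 473 FPKM with DMSO in Pfeiffer, where CD8A made up most of the sum (346 FPKM on average with GSK343 and 411 FPKM with DMSO).

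The 8 stromal markers summed to at most 0.333 FPKM in RL, and their sum was higher with both treatments. They summed to 576 to 685 FPKM with CPI-169 against 205 to 250.3 FPKM with DMSO in KARPAS-422, nearly all of it DCN, which encodes the matrix proteoglycan decorin (643 FPKM on average with CPI-169 and 229.9 FPKM with DMSO), while the other 7 stayed under 1 FPKM. In Pfeiffer they summed to 9.59 and 14.2 FPKM with GSK343 against 8.6 and 9.07 FPKM with DMSO. The highest of them there, PDGFRA, was at 5.46 and 7.92 FPKM with GSK343 and at 6.36 and 6.68 FPKM with DMSO, so that its groups overlapped. Neuron markers summed to 133 and 134 FPKM in RL, to 105 to 111 FPKM with CPI-169 against 73.9 to 75.8 FPKM with DMSO in KARPAS-422, and to 6.85 and 7.19 FPKM with GSK343 against 8.82 and 9.4 FPKM with DMSO in Pfeiffer. In RL and KARPAS-422 almost all of it was 1 entry of TUBB3, a beta-tubulin, which averaged 132 FPKM in RL, 104 FPKM with CPI-169 and 72.1 FPKM with DMSO. Another entry of the same name averaged 0.0256 FPKM in RL, 0.470 FPKM with CPI-169 and 1.05 FPKM with DMSO. SNAP25 and NEFL were listed at 0 in RL. The 5 epithelial markers summed to at most 1.03 FPKM in RL and KARPAS-422, and in Pfeiffer to 55.3 and 75.0 FPKM with GSK343 against 139 and 140.0 FPKM with DMSO. The part of these markers in the results on FGR, AIF1, CLEC7A, LRRC25, THY1, LSAMP, TRIM9 and ARPP21 was not tested.

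THY1 and LSAMP were the 2 highest. THY1, a small glycoprotein of the immunoglobulin superfamily held by a lipid anchor on neurons, fibroblasts and some blood cells (chr11:119288089-119295695, hg19), was at 134.5 and 140.1 FPKM in RL. It was at 0.102, 0.217 and 0.0378 FPKM with CPI-169, against 0.108, 0.0177 and 0.0166 FPKM with DMSO in KARPAS-422, and at 0.0821 and 0.0880 FPKM with GSK343, against 0.0696 and 0.00890 FPKM with DMSO in Pfeiffer. The KARPAS-422 groups overlapped, the Pfeiffer groups did not, and every value outside RL was a small fraction of 1 FPKM. The difference was 0.09 (SE 0.08) on log2(FPKM + 1) with CPI-169 and 0.06 (SE 0.10) with GSK343, and neither passed (limma adjusted p = 0.371 and 0.678).

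LSAMP, an adhesion protein of the IgLON family first described in the limbic system (chr3:115528640-117716095, hg19), was at 104 and 106 FPKM in RL. It was at 0, 0.0183 and 0 FPKM with CPI-169 and listed at 0 in all 3 DMSO libraries of KARPAS-422. It was at 0.0676 and 0.00270 FPKM with GSK343 and listed at 0 in both DMSO libraries of Pfeiffer. Neither treatment passed (limma adjusted p = 0.947 for CPI-169 and 0.679 for GSK343), with estimates of 0.01 (SE 0.06) and 0.05 (SE 0.08). LSAMP was the 1 gene of the 5 in its family at 5 FPKM or more in RL. The other 4, NTM, OPCML, NEGR1 and IGLON5, averaged under 0.1 FPKM there.

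Values were tested on log2(FPKM + 1) with limma, all 5 groups fitted together, and a gene was called where its p, adjusted by Benjamini-Hochberg over the 18731 genes tested, was under 0.05. Each of the 39 entered that test through its RL values, and each began near 0 in the DMSO libraries by the choice of genes, so that a fall could hardly be called. With CPI-169, 13 of 39 genes (33.3%) were higher in KARPAS-422 and 0 lower, where 26.9% of all genes tested were higher and 27.3% lower (54.2% in all). At these limits the share is near the background for a rise and is not a result about the 39. At an unadjusted p under 0.05 the same numbers, 13 and 0, were found. The median difference was 0.03 over the 39 genes and 0.01 over all genes tested.

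S100A4 stood furthest from its DMSO level. It encodes a small calcium-binding protein linked to cell motility (chr1:153516088-153522612, hg19), and it was at 32.7 and 32.8 FPKM in RL. In KARPAS-422 it was at 25.3, 17.8 and 25.2 FPKM with CPI-169, against 0.157, 0.243 and 0.166 FPKM with DMSO. Every treated library was far above every DMSO library and below both RL libraries. The treated mean was 121 times the DMSO mean and 69.6% of the RL mean, and the difference was 4.31 (SE 0.14, limma adjusted p = 1.13e-08).

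GNG7, FGR and TRIM9 rose to intermediate levels. GNG7 encodes a gamma subunit of heterotrimeric G proteins (chr19:2511216-2702707, hg19) and was at 11.3 and 10.5 FPKM in RL, at 3.34, 3.09 and 3.53 FPKM with CPI-169, and at 0.113, 0.102 and 0.188 FPKM with DMSO in KARPAS-422. The groups were wide apart and each treated library exceeded 3 FPKM (difference 1.93, SE 0.07, limma adjusted p = 2.34e-08). The treated mean was 30.5% of the RL mean.

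FGR, a Src-family kinase of myeloid cells and B cells (chr1:27938574-27961788, hg19), was at 42.4 and 41.3 FPKM in RL, at 1.78, 2.21 and 2.38 FPKM with CPI-169, and at 0.281, 0.369 and 0.226 FPKM with DMSO in KARPAS-422. The groups did not overlap, yet the treated mean was 5.08% of the RL mean (difference 1.27, SE 0.09, limma adjusted p = 9.92e-07). TRIM9, a ubiquitin ligase of neurons (chr14:51441979-51562779, hg19), was at 5.10 and 5.40 FPKM in RL, at 1.22, 1.42 and 1.44 FPKM with CPI-169, and at 0.142, 0.213 and 0.128 FPKM with DMSO. It reached 25.9% of the RL mean, again with no overlap (difference 1.02, SE 0.08, limma adjusted p = 2.02e-06).

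The other 9 ended at 1.26 FPKM or less. PTPRVP, a pseudogene of a receptor tyrosine phosphatase, averaged 1.26 ± 0.119 FPKM with CPI-169 and 0.286 ± 0.0319 FPKM with DMSO (SD, n = 3 each), and the lincRNA ENSG00000214797 on chromosome 11 averaged 1.05 ± 0.0439 FPKM with CPI-169 and 0.0695 ± 0.0272 FPKM with DMSO (SD, n = 3 each). Both passed, and in neither did the groups overlap. AIF1, which encodes the calcium-binding protein IBA1 of macrophages, was at 1.05, 0.636 and 0.749 FPKM with CPI-169, against 0.160, 0.0822 and 0.0562 FPKM with DMSO. C10orf128, now named TMEM273, was at 0.802, 0.437 and 0.428 FPKM with CPI-169, against 0, 0.0274 and 0.168 FPKM with DMSO. MYEOV, a gene near CCND1 first found overexpressed in myeloma, was at 0.877, 0.613 and 0.805 FPKM with CPI-169, against 0.244, 0.409 and 0.193 FPKM with DMSO. The treated and DMSO libraries did not overlap in these 3 genes either, and all 5 passed with differences from 0.46 to 0.94 (limma adjusted p = 0.00184 or lower).

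APOBEC3B, a cytidine deaminase that acts on single-stranded DNA, CLEC7A, the receptor dectin-1 for fungal glucans, SPATA12 and the lincRNA AC006129.2 made up the 13, with differences of 0.49, 0.28, 0.25 and 0.21 and limma adjusted p = 0.00532, 0.00638, 0.0167 and 0.0352. The CPI-169 libraries lay above all DMSO libraries in each of the 13 and in 14 of the 39 in all, where 33.2% of all genes tested did so. Treated levels of the 13 were 3.44% to 69.6% of the RL mean with a median of 9.77%, and 4 of them reached 20% or more. Quantile normalization ended the calls of CLEC7A, SPATA12 and AC006129.2 (limma adjusted p = 0.0848, 0.555 and 0.107). The call of SPATA12 was also lost without CPI-169 replicate 1 or 3 or DMSO replicate 1 (limma adjusted p = 0.0508, 0.0613 and 0.0662), and that of AC006129.2 without CPI-169 replicate 1 or 3 or any DMSO replicate (0.0616 to 0.143), with no filter on low values (0.0506) and with the replicate block (0.0597).

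**Figure D2:**
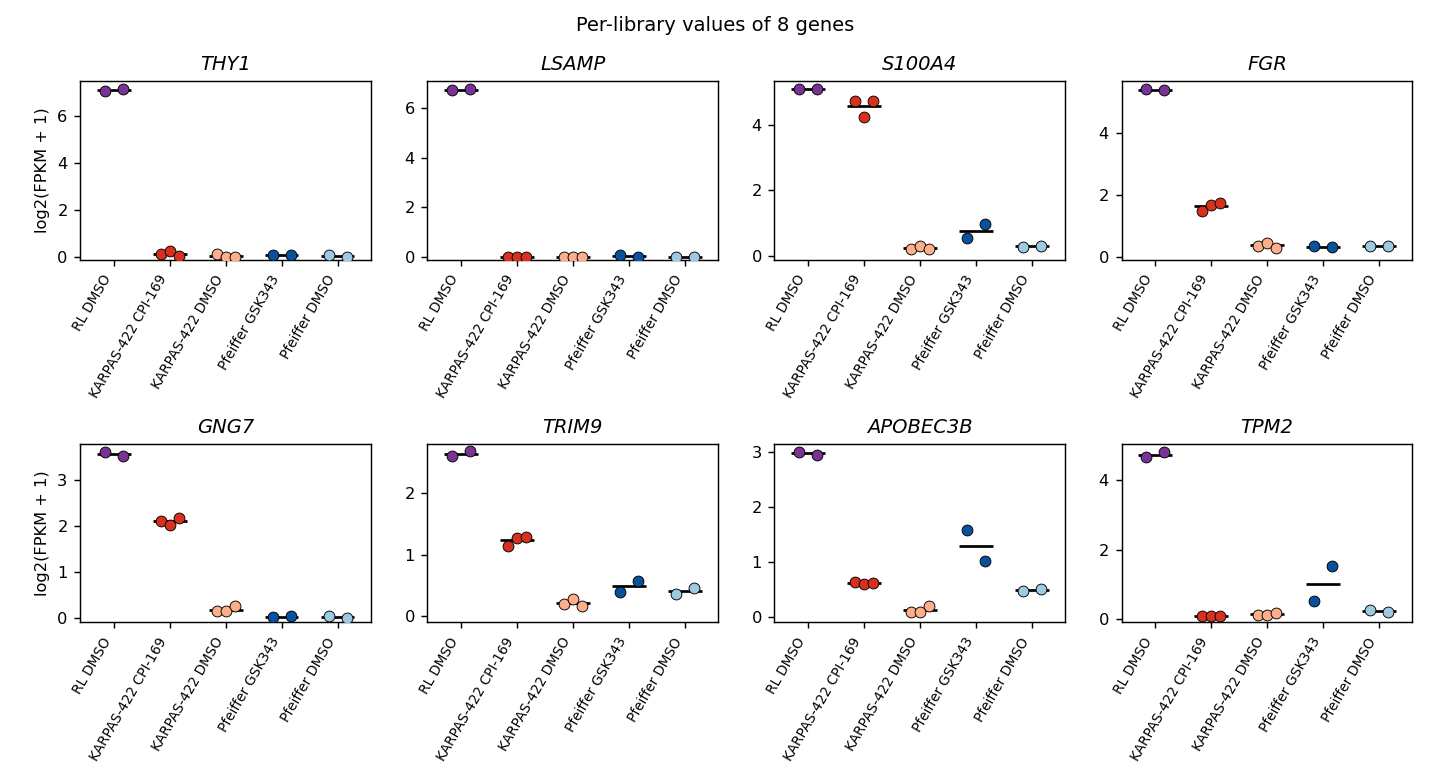
Values of 8 genes on log2(FPKM + 1), 1 point per library, horizontal bars at the group means, groups in the order RL, KARPAS-422 with CPI-169 and DMSO, Pfeiffer with GSK343 and DMSO. S100A4 with CPI-169 lies just below RL, GNG7, FGR and TRIM9 lie between RL and DMSO, and THY1 and LSAMP stay at the baseline in every treated library.

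With GSK343, 5 of the 39 genes (12.8%) were higher in Pfeiffer and 0 lower, where 12% of all genes tested were higher and 17.5% lower (29.5% in all). At these limits the share is again near the background and is not a result about the 39. At an unadjusted p under 0.05 there were 7. Of all genes tested, 2254 were called higher and 3281 lower, and quantile normalization moved these to 2652 and 2548. Both GSK343 libraries lay above both DMSO libraries in 14 of the 39, where 23.9% of all genes tested did so.

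APOBEC3B had the highest difference (chr22:39378351-39388809, hg19). It was at 6.98 and 6.66 FPKM in RL and at 1.98 and 1.02 FPKM with GSK343, against 0.393 and 0.412 FPKM with DMSO in Pfeiffer. In KARPAS-422 it was at 0.552, 0.503 and 0.534 FPKM with CPI-169, against 0.0652, 0.0634 and 0.144 FPKM with DMSO. The groups did not overlap in either line, and the difference was 0.81 (SE 0.15, limma adjusted p = 0.00248) with GSK343 and 0.49 (SE 0.12) with CPI-169. It was the 1 gene called higher with both compounds, which is 1 of the 13 and 1 of the 5, where 5.65% of all genes tested were higher with both. Its call with CPI-169 was lost with quantile normalization (limma adjusted p = 0.0932) and its call with GSK343 with Pfeiffer fitted alone (0.127), so that it was not called with both in every alternative. The 4 tested genes of the same cluster within 100 kb, APOBEC3C, APOBEC3D, APOBEC3F and APOBEC3G, were also called higher with both compounds, and since these paralogs are alike in sequence, the way the authors' counting split reads among them makes each single value uncertain.

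TPM2, the beta-tropomyosin of muscle and other cells (chr9:35681988-35691017, hg19), was at 24.4 and 27.2 FPKM in RL and at 0.421 and 1.87 FPKM with GSK343, against 0.192 and 0.157 FPKM with DMSO in Pfeiffer. Both GSK343 libraries were above DMSO, and replicate 2 was far above replicate 1 (difference 0.78, SE 0.24, limma adjusted p = 0.0311). PHLDA3, a p53 target that restrains AKT, was at 0.572 and 1.20 FPKM with GSK343, against 0.314 and 0.274 FPKM with DMSO (difference 0.53, SE 0.13, limma adjusted p = 0.0142). TNNI2, a troponin of fast skeletal muscle, and LILRB1, an inhibitory receptor for MHC class I, rose by 0.34 (SE 0.09, limma adjusted p = 0.0173) and 0.30 (SE 0.10, limma adjusted p = 0.0447).

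The GSK343 libraries differed from each other more than those of any other group (Pearson r = 0.970 over genes tested, against 0.993 or more elsewhere), and 4 of the 39 genes were at 0.5 FPKM or more in GSK343 replicate 1 and 8 in replicate 2. The main fit takes 1 spread per gene from all 5 groups. Its SE and p-values for GSK343 are therefore likely too small where this pair scatters more. With Pfeiffer fitted alone, on 2 libraries per group, 0 of the 18731 genes tested passed. BTNL9, a butyrophilin-like membrane protein, was at 0.396 and 1.30 FPKM with GSK343, and the lincRNA RP11-132N15.1 at 0 and 0.684 FPKM. In fits that leave out a Pfeiffer library, 1 arm holds a lone library, which is assumed to vary like the other groups. Fitted so without DMSO replicate 1 or without DMSO replicate 2, APOBEC3B was the 1 gene called. TPM2 then had limma adjusted p = 0.116 and 0.120, PHLDA3 0.0614 and 0.0723, and TNNI2 0.0671 and 0.0768, while LILRB1 lost its call in 10 of the 12 fits that left out 1 library. Without GSK343 replicate 1 there were 9 calls.

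**Figure D3:**
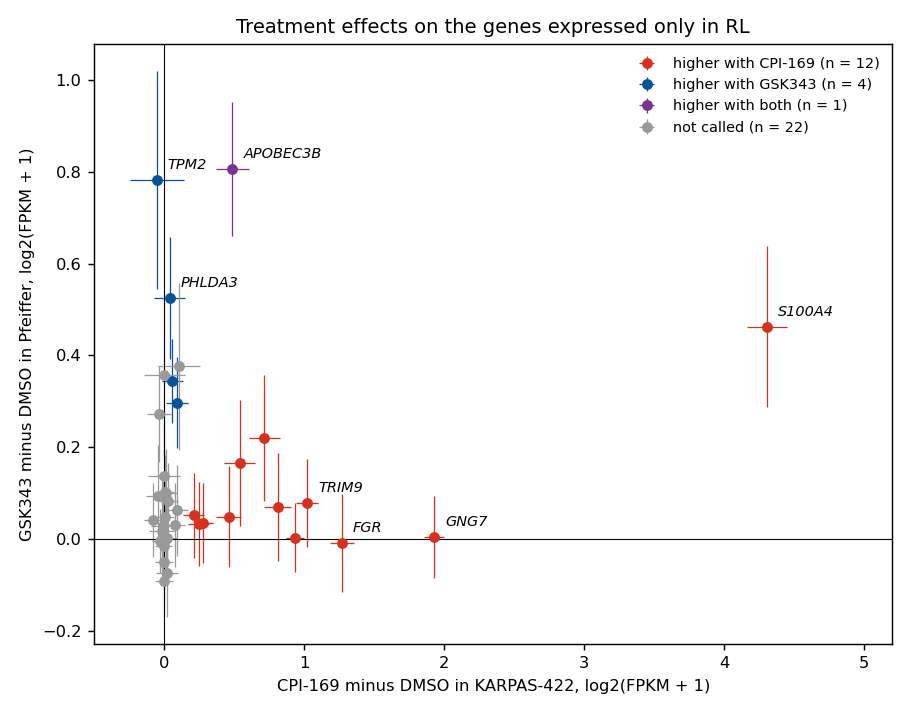
Difference with CPI-169 in KARPAS-422 (horizontal) against the difference with GSK343 in Pfeiffer (vertical) for the 39 genes, both on log2(FPKM + 1), with bars of 1 SE and colours for the calls. Red points, called with CPI-169, spread to the right as far as S100A4 at 4.31, blue points, called with GSK343, lie upwards near 0 on the horizontal axis, and APOBEC3B is the 1 gene called with both.

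The effects of the 2 treatments were then set against each other. The CPI-169 effect minus the GSK343 effect passed for 10 of the 39 genes, where 42.6% of all genes tested passed: 8 with a higher CPI-169 effect (20.5%) and 2 with a higher GSK343 effect, against 23.8% and 18.8% of all genes tested. Over all genes these were 4460 and 3523 calls, and median scaling turned them to 3760 and 4445. S100A4, at 0.463 and 0.976 FPKM with GSK343 against 0.210 and 0.258 FPKM with DMSO in Pfeiffer, was not called there (limma adjusted p = 0.0702), and its effects differed by 3.84 (SE 0.23, limma adjusted p = 1.65e-06). The effects also differed for GNG7 by 1.92, for FGR by 1.28, for TRIM9 by 0.94, for ENSG00000214797 by 0.93 and for PTPRVP by 0.74 (limma adjusted p = 0.00294 or lower). These 6 passed in each of the 20 alternative fits.

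AIF1 and MYEOV, higher with CPI-169, and TPM2 and PHLDA3, higher with GSK343, passed at adjusted p between 0.0389 and 0.0486 and lost the call in 13 to 16 of the 20. For APOBEC3B the difference of the effects was -0.32 (SE 0.19) and was not called (limma adjusted p = 0.202). For THY1 and LSAMP it was 0.03 (SE 0.13) and -0.04 (SE 0.10).

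Whether the genes crossed the limit that made them silent was read on the FPKM scale, with no filter on low values. In every CPI-169 library, 9 of the 39 (23.1%) were at 0.5 FPKM or more, and in every GSK343 library 2 of 39 (5.13%), APOBEC3B and PHLDA3. Of the 33684 genes that were under 0.5 FPKM in RL as well as in the 5 DMSO libraries, 0.805% reached 0.5 FPKM with CPI-169 and 0.692% with GSK343, and over all 34331 silent genes 1.07% and 0.786% did so. Of the 608 silent genes with other levels in RL, it was 14.5% and 5.76%. By limma with no filter on low values, which calls small changes too, 30.8% of the 39, 7.02% of the 18961 fitted genes silent in RL and 25.8% of the 608 were higher with CPI-169. With GSK343 these shares were 7.69%, 5.77% and 4.44%.

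Since most genes that are silent in all lines are not protein-coding, the same was counted over protein-coding genes. With CPI-169 it was 7 of 30 (23.3%) for the genes at 5 FPKM or more in RL, 40 of 190 (21.1%) for those between, and 121 of 6143 (1.97%) for those under 0.5 FPKM in RL. With GSK343 it was 2 of 30 (6.67%), 21 of 190 (11.1%) and 141 of 6143 (2.30%). The starting levels differed too: the median of the KARPAS-422 DMSO means was 0.0578 FPKM in the 30 genes, 0.0964 FPKM in the 190 and 0 in the 6143. The part of the starting level in these shares was not tested.

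**Figure D4:**
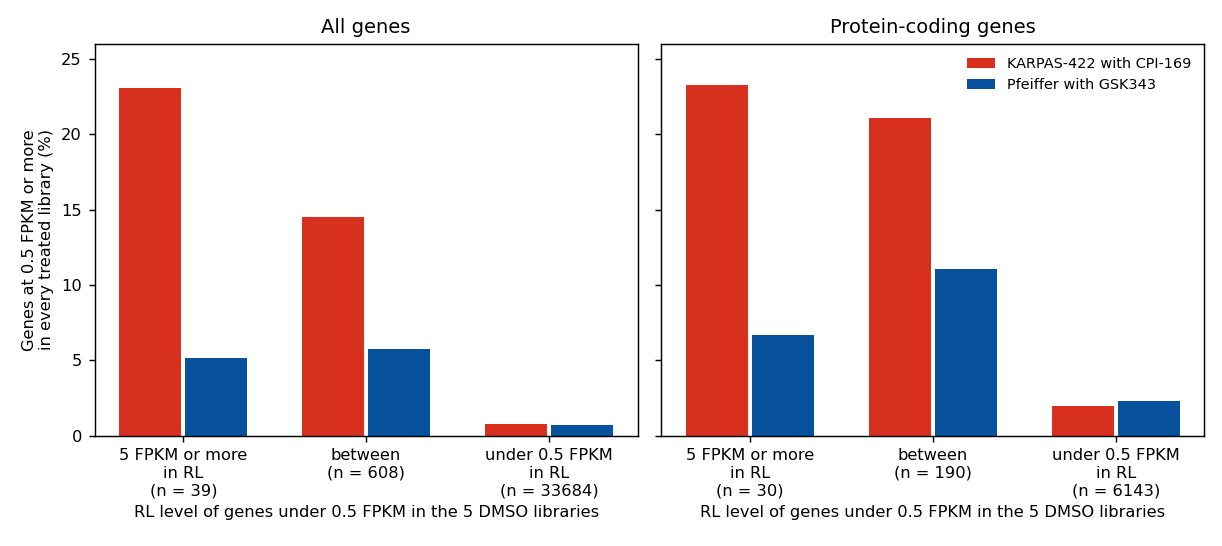
Share of genes under 0.5 FPKM in all 5 DMSO libraries that were at 0.5 FPKM or more in every treated library (vertical, %), by their level in RL (horizontal), for all genes (left) and protein-coding genes (right), red for CPI-169 in KARPAS-422 and blue for GSK343 in Pfeiffer. With CPI-169 the share is 23.1% for the 39 genes and 0.805% for genes silent in RL, and over protein-coding genes the 30 genes and the 190 between are close.

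The other 22 genes were called with neither compound. Of the 12 genes highest in RL, S100A4 and FGR were called higher with CPI-169 and TPM2 with GSK343. NMU, a neuropeptide that contracts smooth muscle, was at 33 and 30.4 FPKM in RL and listed at 0 in all 6 KARPAS-422 libraries. ARPP21, a cAMP-regulated phosphoprotein of the striatum and of early lymphoid cells, averaged 19.5 ± 0.160 FPKM in RL (SD, n = 2), 0.0169 ± 0.020 FPKM with CPI-169 and 0.0175 ± 0.0303 FPKM with DMSO in KARPAS-422 (SD, n = 3 each). Among the 26 genes not called with CPI-169, the highest CPI-169 mean was 0.358 FPKM, that of BTNL9.

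Receptors and channels of the cell surface were among these 22. S1PR4, a receptor for sphingosine 1-phosphate on lymphocytes, was at 14.4 and 15.4 FPKM in RL and listed at 0 in all 6 KARPAS-422 libraries, and at 0.630 and 0.136 FPKM with GSK343 against 0.262 and 0.212 FPKM with DMSO in Pfeiffer, where the groups overlapped. GPR132, a G protein-coupled receptor of leukocytes, LGR6, a receptor for R-spondins, and LRRC25, a leucine-rich membrane protein of myeloid cells, had limma adjusted p = 0.0732, 0.461 and 0.740 with GSK343 and 0.793, 0.906 and 0.351 with CPI-169. VPREB1, which forms part of the surrogate light chain of the pre-B cell receptor, was at 5.89 and 7.14 FPKM in RL and at most 0.185 FPKM in any other library.

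Potassium channels gave 2 of the 39, the voltage-gated channel KCNQ1 (11.6 and 9.60 FPKM in RL) and the calcium-activated channel KCNN4 (5.60 and 5.34 FPKM in RL). Neither was called with CPI-169 (limma adjusted p = 0.422 and 0.865) or GSK343 (0.836 and 0.590). Of the 23 tested channel genes among 92 in the table, 6 (26.1%) were called higher and 7 (30.4%) lower with CPI-169, near the 26.9% and 27.3% of all genes tested. With GSK343 it was 4 (17.4%) higher and 0 lower, against 12% and 17.5% of all genes tested. Known partners of THY1 (integrins, a syndecan and CD97) were tested for 7 of 10 genes: 2 rose (ITGAV and ITGB5, 28.6%) and 3 fell (ITGB1, ITGB2 and ITGB3, 42.9%) with CPI-169, and 5 rose (71.4%) with GSK343, where the shares of all genes tested were 26.9%, 27.3% and 12%. None of the 46 interferon-stimulated genes in the table is among the 39. Only 4 of the 46 met the lower limit in the DMSO libraries, so the choice of genes largely set this outcome.

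The surroundings of the 39 genes were examined within 100 kb on hg19. Of 138 distinct neighbours tested, 21 (15.2%) had an RL mean at least 2-fold above both other lines on FPKM + 1, where 4.87% of all tested autosomal genes outside the 39 and the immunoglobulin genes did so. Some of the 21, ARHGEF3, CEACAM21, PAX8 and USP2-AS1 among them, overlap genes of the 39 and may share reads with them. The part of such overlaps in the share was not tested. MCAM, the adhesion molecule CD146, lies 95858 bases from THY1 and averaged 57.6 ± 1.16 FPKM in RL (SD, n = 2), against 0.169 ± 0.0189 FPKM in KARPAS-422 (SD, n = 3) and 1.79 ± 0.142 FPKM in Pfeiffer (SD, n = 2) under DMSO. LSP1, an actin-binding protein of leukocytes 11289 bases from TNNI2, averaged 183 ± 0.613 FPKM in RL, against 1.88 ± 0.422 FPKM in KARPAS-422 and 13.2 ± 1.4 FPKM in Pfeiffer. CD72, a B cell receptor for semaphorin 35181 bases from TPM2, averaged 66.4 ± 0.338 FPKM in RL, against 1.35 ± 0.168 FPKM in KARPAS-422 and 1.08 ± 0.172 FPKM in Pfeiffer.

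These 3 neighbours rose with both compounds, as did AHDC1, C11orf89 and ARHGEF3, while others of the 21 fell with 1 compound. RNF26 beside THY1, SIT1 beside TPM2 and TROAP beside DNAJC22 were lower with GSK343 (limma adjusted p = 0.00168, 0.00174 and 2.16e-06). With CPI-169, TROAP was higher (limma adjusted p = 0.0428). USP2-AS1, which overlaps THY1, was lower with CPI-169 (limma adjusted p = 0.0472). MCAM averaged 0.795 ± 0.165 FPKM with CPI-169 and 0.169 ± 0.0189 FPKM with DMSO in KARPAS-422 (SD, n = 3 each, limma adjusted p = 0.00161), and 3.78 ± 1.18 FPKM with GSK343 and 1.79 ± 0.142 FPKM with DMSO in Pfeiffer (SD, n = 2 each, limma adjusted p = 0.00422). LSP1 averaged 15.2 FPKM with CPI-169 against 1.88 FPKM with DMSO, and 55.2 FPKM with GSK343 against 13.2 FPKM with DMSO (limma adjusted p = 1.34e-07 and 1.35e-05). CD72 averaged 4.39 FPKM with CPI-169 against 1.35 FPKM with DMSO, and 1.78 FPKM with GSK343 against 1.08 FPKM with DMSO (limma adjusted p = 3.19e-06 and 0.0248). THY1, the gene beside MCAM, was called with neither compound, and TNNI2 and TPM2, beside LSP1 and CD72, were called with GSK343. Of the 21 neighbours high in RL, 13 (61.9%) were higher with CPI-169 and 6 (28.6%) with GSK343, where 54.4% and 20.4% of the 868 such genes over the genome were. The DMSO libraries that define these genes as low outside RL also serve in the treatment contrasts.

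Neighbours of a gene that rose with CPI-169 did not all rise with it. Of the neighbours of the 13 genes called higher, 21 of 59 (35.6%) were higher with CPI-169, and of those of the other 26 genes 28 of 86 (32.6%), where 27.0% of all such genes were. GNG7 rose while DIRAS1, a Ras-like GTPase 11857 bases away and also 1 of the 39, was at 0.0508, 0.107 and 0 FPKM with CPI-169 against 0.0565, 0.0252 and 0.0657 FPKM with DMSO. PTPRVP rose while LGR6, 4445 bases away, averaged 0.0138 ± 0.0122 FPKM with CPI-169 and 0.00275 ± 0.00476 FPKM with DMSO. Near S100A4, S100A6 (7368 bases away), S100A13 and S100A1 rose with CPI-169 as S100A4 did (limma adjusted p = 1.21e-06, 2.44e-05 and 3.48e-05). CHTOP was lower there (limma adjusted p = 1.85e-05), and RP1-178F15.5 and RP1-178F15.4 were not called (0.436 and 0.133). Between the lines under DMSO, S100A6 went the opposite way to S100A4. It averaged 0.0647 FPKM in RL, and in KARPAS-422 42.9 ± 4.83 FPKM with CPI-169 and 8.33 ± 1.84 FPKM with DMSO (SD, n = 3 each).

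Some of the 39 overlap each other or other genes, and the handling of strand in the authors' counting is not given in the sources used here, so that their values are uncertain. THY1-AS1 (ENSG00000263873), an RNA inside THY1, had 34.1 and 35.8 FPKM in RL. THY1 also overlaps the antisense gene USP2-AS1, which averaged 23.1 FPKM in RL, and 3.85 FPKM with CPI-169 against 5.10 FPKM with DMSO in KARPAS-422. MYEOV overlaps the pseudogene IFITM9P, which rose as well, to 12.3 ± 1.47 FPKM with CPI-169, against 3.54 ± 0.137 FPKM with DMSO (SD, n = 3 each, limma adjusted p = 3.47e-05). SPATA12 overlaps ARHGEF3, a guanine nucleotide exchange factor, which also rose, to 3.37 ± 0.290 FPKM with CPI-169, against 1.13 ± 0.105 FPKM with DMSO (SD, n = 3 each, limma adjusted p = 7.61e-05). Whether the calls of MYEOV and SPATA12 hold apart from these overlapping genes was not tested. AC006129.2 overlaps CEACAM21, and AC016683.6, now PAX8-AS1, overlaps PAX8. D86994.2 is a feature of 97 bases (chr22:23006897-23006993, hg19) that no annotation used here names, and it was at 32.6 and 36.2 FPKM in RL. Immunoglobulin genes were left out by symbol alone, so that other features of their loci could stay. Whether D86994.2 belongs to such a locus was not tested.

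The limits of 5 and 0.5 FPKM cut through a continuum. The lowest RL values among the 39 were 5.04 FPKM for C10orf128, 5.10 FPKM for TRIM9 and 5.29 FPKM for SPATA12, and the genes just below the limit were MAP1LC3C (4.98 FPKM), HEMGN (4.86 FPKM) and RAB37 (4.82 FPKM). The highest DMSO values among the 39 were 0.461 FPKM for KCNN4, 0.412 FPKM for APOBEC3B and 0.409 FPKM for MYEOV, and the genes just over the limit were IRAK2 (0.512 FPKM), TSPAN18 (0.547 FPKM) and DTX4 (0.561 FPKM).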

How the data were processed

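The authors deposited 1 table of FPKM values for 63129 genes in 12 libraries. Per the submitters' processing notes, TopHat 1.4.1 and Cufflinks (version not given in the sources used here) were run on hg19. The table gives no depth, and an exact 0 may stand for an estimate that failed. Per the labels' protocols, pellets were lysed in Trizol or RLT buffer, and which library had which is not stated.

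The 18731 genes that reached 1 FPKM in 2 or more libraries (77 genes with missing values left out) were fitted as log2(FPKM + 1) with limma 3.58.1 in R 4.3.3 (5 groups, intensity trend, 7 residual degrees of freedom, adjusted p under 0.05). The log2 scale with a pseudocount of 1 understates changes of low genes. The fit was tested on simulated data. The genes, the gene lists and the tests were chosen with earlier results of these data known. Genes were named by rule: THY1 and LSAMP, the 12 highest in RL, the 10 highest effects per treatment among called genes, the 5 smallest adjusted p for the difference, those at the limits and those on a list, with others named where a count or role needed them, after their values were seen. Alternatives were other pseudocounts, filters, scalings, limits and fits without 1 library. Loci are hg19, 1-based. Promoters are from RefSeq and classes from GENCODE 29.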

Additional observations from a re-analysis of the deposited data

Results flagged for a closer look

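For 10 of the 39 genes the effect of CPI-169 in KARPAS-422 and the effect of GSK343 in Pfeiffer differed by a test of the difference itself (limma, adjusted p under 0.05), where 42.6% of all genes tested did so. On log2(FPKM + 1), CPI-169 minus GSK343, S100A4 differed by 3.84, GNG7 by 1.92, FGR by 1.28, TRIM9 by 0.94, ENSG00000214797 by 0.93 and PTPRVP by 0.74, and these 6 passed in all 20 alternative fits. AIF1 (0.50), MYEOV (0.41), TPM2 (-0.83) and PHLDA3 (-0.48) lost the call in 14, 14, 13 and 16 of the 20. Each of the 4 lost it without either RL library, either Pfeiffer DMSO library, KARPAS-422 CPI-169 replicate 1 or 3, or KARPAS-422 DMSO replicate 1 or 3, with highest adjusted p = 0.143, 0.213, 0.128 and 0.150 over the alternatives. Line and compound cannot be told apart in these differences. No group of 4 or more libraries was available for a check of single outlying libraries.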

How the results depend on the processing

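Leaving out each library in turn gave 11 to 13 genes higher with CPI-169, 1 to 9 with GSK343 and 6 to 14 for the difference. The limits moved every count: at least 10 or 2 FPKM in RL left 17 or 102 genes (4 or 45 higher with CPI-169, 1 or 15 with GSK343, 5 or 27 for the difference), and under 0.1 or 1 FPKM in DMSO left 15 or 64 (2 or 28, 0 or 12, and 1 or 20 in the same comparisons). Of all genes tested, 26.9% were higher with CPI-169. The stricter limits, 10 FPKM in RL and 0.1 FPKM in DMSO, gave lower shares than that. The looser limits gave higher shares, so how near a share is to the background depends on the limits. With GSK343 the shares also lay below that of all genes tested at the stricter limits and above it at the looser ones. For the difference every share stayed below the 42.6% of all genes tested. GSK343 gave 3 calls with no filter on low values, 2 with quantile normalization, 0 with Pfeiffer fitted alone (where 0 of all genes passed) and 1 with the replicate block. The difference gave 6 with no filter and 6 with the replicate block. CPI-169 gave 12 with the block. Replicate numbers are shared by treated and DMSO libraries, and they were not taken as pairs in the main fit. Same-numbered deviations from the group means correlated at -0.152, -0.252 and 0.156 in KARPAS-422 and at 0.14 in Pfeiffer. With 2 libraries per group, both Pfeiffer pairs give the same value by construction. So few libraries cannot decide whether the numbers mark pairs. With 1 and 2 FPKM in place of 0.5 FPKM in every treated library, 6 and 2 genes reached the level with CPI-169 and 1 and 0 with GSK343. Without 1 GSK343 library, 4 to 8 reached 0.5 FPKM. No direction of a called gene reversed in any alternative. Of the calls, 9 of 13 with CPI-169, 0 of 5 with GSK343 and 6 of 10 for the difference held in each of 20 alternatives.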
